A study of Mus musculus with 71 samples.

Results

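Adrenergic signaling through cAMP was examined in fat cells with 6 genes in view: Adrb3, Pde3b, Pde4b, Prkar2b, Gnai1 and Rgs2. The members were all probe sets that the annotation of the array assigns to exactly 1 gene, that gene being one of the 6. This gave 7 of 22626 probe sets, namely 2 for Rgs2, 2 for Pde4b and 3 for Gnai1. Adrb3, Pde3b and Prkar2b were not analysed here. Rgs2 had been picked on its fall at 1 hr in these same arrays, so its values at 1 hr are given as a description with no test, and the later times, which come from other arrays, carry the tests.

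In fat cells, catecholamines bind beta-adrenergic receptors, the stimulatory G protein Gs then turns on adenylyl cyclase, and the cAMP that is made activates protein kinase A, which drives the breakdown of stored fat. Inhibitory G proteins, of which Gnai1 encodes an alpha subunit, hold the cyclase back, and phosphodiesterases such as the one encoded by Pde4b break cAMP down. Rgs2 belongs to the regulators of G protein signaling, proteins that speed up the shut-off of G protein alpha subunits, and it acts best on the Gq class.

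The cells were adipocytes made in culture from 3T3-L1 preadipocytes and from C3H/10T1/2 cells, 2 mouse lines of fibroblast type, of which the second can also take other fates. All 3T3-L1 groups had been differentiated with insulin, 0.5 mM 3-isobutyl-1-methylxanthine (an inhibitor of phosphodiesterases), 0.25 µM dexamethasone and 100 nM rosiglitazone (RSG), an agonist of the nuclear receptor PPARγ. All C3H/10T1/2 groups had been differentiated with insulin and 10 µM RSG. Every culture, the controls included, was then kept for 24 hrs in a washout medium with 1% bovine serum albumin and received 1 µM RSG or the vehicle DMSO for 1, 2, 4, 7, 24 or 48 hrs. No adrenergic agonist is named in the treatments. Of the 24 groups, 23 held 3 arrays and 1, the 2-hr DMSO group of 3T3-L1, held 2, which made 35 arrays for that line and 36 for C3H/10T1/2. Each is a single established line, so the spread within a group is that between cultures of different differentiation batches. The study's methods name 3 batches per condition in each line and pool the cells of 2 wells for each sample. They do not say whether arrays of different times or treatments share a batch.

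The fat cell genes Adipoq, Fabp4, Lpl, Cidec, Lipe, Pparg and Retn were present on all 71 arrays, whereas Lep, also a fat cell gene, was present on none. A probe set counts as present here when its signal reaches the presence level of the study's methods, and 67.8% to 73.9% of probe sets were present on the 3T3-L1 arrays and 62.1% to 67.7% on the C3H/10T1/2 arrays. Of the macrophage genes, the leukocyte gene Ptprc was present on 1 array and Itgam on none, whereas Csf1r and Cd68 were present on all 71 and Adgre1 on all 35 arrays of 3T3-L1 and 29 of 36 of C3H/10T1/2 adipocytes. Of the fibroblast and preadipocyte genes, Pdgfra, Pdgfrb, Thy1, Col1a1, Col3a1 and Vim were present on all 71 arrays, and Dlk1, a gene of preadipocytes, had a median signal of 2669.9 in the 3T3-L1 line and 31.4 in the other. Des, a skeletal muscle gene, and Kdr, an endothelial gene, were present on all arrays. Myog of muscle and Pecam1 of endothelium were present on 9 and 17 of 35 arrays of 3T3-L1 and on none of C3H/10T1/2 adipocytes. The arrays thus carried markers of fat cells together with markers of fibroblasts, and some genes of each other list were present.

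The sequence upstream of Rgs2 is shown because Rgs2 is the gene that moved with RSG in both lines. The gene lies on the minus strand of chromosome 1 in GRCm38.p6, from 143999338 to 144004149, and the 250 bases before its start of transcription, from RefSeq, read 5′ to 3′ with the letters TGACG or their reverse complement in capitals.
Rgs2, chr1:144004150-144004399: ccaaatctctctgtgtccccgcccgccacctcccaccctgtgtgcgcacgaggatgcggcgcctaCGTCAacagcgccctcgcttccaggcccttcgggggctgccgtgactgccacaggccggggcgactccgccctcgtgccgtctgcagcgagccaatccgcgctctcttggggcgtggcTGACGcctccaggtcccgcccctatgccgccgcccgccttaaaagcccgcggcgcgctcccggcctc
TGACG is the core of the cAMP response element, the site that CREB is known to bind. It occurs on the gene's strand 67 bases before the start and on the opposite strand 185 bases before it, and 20.8% of 32851 promoter windows of 300 bases (250 before to 50 after a start) hold it on either strand. The full element TGACGTCA, which contains it, is in 1.79% of windows and not in that of Rgs2. The letters AGGTCA, the core of nuclear receptor sites, are in 16.3% of windows and not in that of Rgs2. A match is only a match of letters.

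Rgs2 was lower with RSG than with DMSO at all 6 times in both lines, on both of its probe sets. The RSG level lay between 42.3% and 58.3% of the DMSO level in the 3T3-L1 line and between 49.65% and 73.8% in the C3H/10T1/2 line. The signals were high, with 254.4 the lowest on any array. Since RNA was taken from whole cultures, fewer cells that make Rgs2 and less Rgs2 RNA per cell cannot be told apart.

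In 3T3-L1 adipocytes at 1 hr, probe set 1419247_at read 1120.7, 1287.3 and 1319.8 with DMSO and 563.3, 696.4 and 684.3 with RSG. The means were 1243 ± 107 (SD, n = 3) and 648 ± 73.6 (SD, n = 3), a log2 difference of -0.94 ± 0.15 (SE). Probe set 1419248_at gave -0.96 ± 0.15, from a mean of 681 with DMSO to 353 with RSG. The RSG arrays lay under all DMSO arrays on both. These are the values Rgs2 was chosen from, and 0.0666% of all probe sets tested were called at this time (adjusted p under 0.05 in limma), a share given only as background.

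The gap was there on the separate arrays of the later times. At 2 hrs, 1419247_at read 1298.5 and 1252.3 with DMSO against 628.0, 644.3 and 662.9 with RSG. At 4 hrs it read 1414.6, 1227.9 and 1093.2 against 562.1, 469.2 and 729.3. At 7 hrs it read 1226.8, 959.5 and 969.5 against 690.3, 617.7 and 490.0. DMSO and RSG arrays did not overlap at any of these times. At 24 hrs the DMSO arrays read 1282.8, 981.8 and 1067.5 and the RSG arrays 634.2, 538.5 and 502.3. At 48 hrs they read 1278.2, 1203.3 and 1237.3 against 577.0, 483.0 and 517.3, the lowest RSG mean of the 6 times. The second probe set moved in the same way, from DMSO means of 573 to 692 at 2 to 48 hrs to RSG means of 285 to 383, and again without overlap.

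By limma with Benjamini-Hochberg adjustment over all probe sets, both Rgs2 probe sets were called lower at 2, 4, 7, 24 and 48 hrs alike in the 3T3-L1 line. The share of all probe sets called at those times was 0.172%, 0.716%, 2.04%, 11.8% and 14.3%. For 1419247_at the log2 differences were -0.98 ± 0.16 (SE), -1.10 ± 0.15, -0.82 ± 0.15, -0.99 ± 0.15 and -1.24 ± 0.15, with adjusted p of 0.00202, 3.47e-05, 0.00109, 1.64e-05 and 2.76e-07. For 1419248_at they were -0.95, -0.78, -0.82, -1.07 and -1.21, with adjusted p of 0.00315, 0.00412, 0.00118, 6.23e-06 and 5.04e-07. Of 18028 probe sets tested in 3T3-L1 adipocytes, 0.244% had every RSG array under every DMSO array at all 5 of these times, as both Rgs2 probe sets did. The calls at 2 hrs rested on few control arrays: without DMSO replicate 2, which leaves 1 DMSO array assumed to vary like the rest, adjusted p was 0.0535 and 0.128, and in a fit of only the 2-hr groups 0.0612 and 0.0933.

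**Figure D1:**
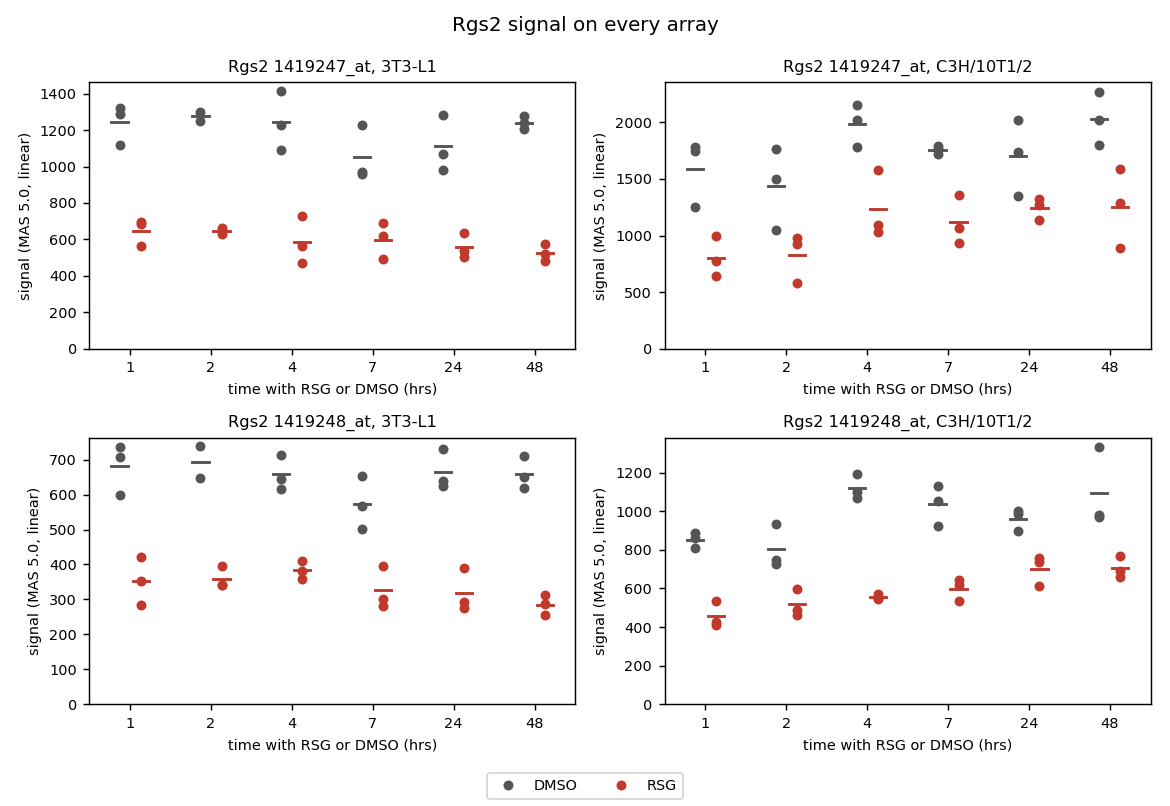
Signal (MAS 5.0, linear scale from 0) of the Rgs2 probe sets on each array against time in hrs, in either line. Points are arrays (grey DMSO, red RSG) and bars are group means (n = 3, or 2 for DMSO at 2 hrs in 3T3-L1). At each time the RSG arrays lie under the DMSO arrays, for example at or under 577.0 against at or over 1203.3 for 1419247_at at 48 hrs in 3T3-L1.

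In C3H/10T1/2 adipocytes at 1 hr, 1419247_at read 1248.4, 1779.5 and 1743.5 with DMSO and 638.4, 774.1 and 995.0 with RSG, a log2 difference of -0.99 ± 0.22 (SE). Probe set 1419248_at differed by -0.91 ± 0.13. The arrays did not overlap on either, and 0.0434% of all probe sets were called at this time, again given only as background.

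At 2 hrs the DMSO arrays read 1048.5, 1498.1 and 1764.9 and the RSG arrays 578.9, 926.4 and 979.2. At 4 hrs the values were 2022.7, 1784.3 and 2150.6 against 1034.8, 1093.2 and 1582.2. At 7 hrs they were 1716.4, 1763.9 and 1793.0 against 930.9, 1065.8 and 1358.4. RSG arrays stayed under all DMSO arrays of the same time, though for this probe set the SE of a difference was wider than in the other line (0.22 against 0.15). At 24 hrs the DMSO arrays read 1352.9, 1734.6 and 2017.6 and the RSG arrays 1136.8, 1268.7 and 1321.1, the narrowest gap. At 48 hrs they read 1803.2, 2268.1 and 2020.5 against 889.8, 1284.7 and 1589.6.

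Probe set 1419248_at was called lower at all 5 later times in C3H/10T1/2 adipocytes, by -0.63 ± 0.13 (SE), -1.01 ± 0.13, -0.79 ± 0.13, -0.46 ± 0.13 and -0.62 ± 0.13 (log2), with limma adjusted p of 0.0164, 2.49e-05, 0.000332, 0.0257 and 0.00259. For 1419247_at the differences were -0.80, -0.71, -0.67, -0.44 and -0.73, each ± 0.22 (SE), and of these the fit called the one at 48 hrs (adjusted p = 0.0439), with 0.216, 0.172, 0.0973 and 0.263 at the earlier times. The share of all probe sets called was 0.229%, 0.763%, 2.85%, 7.72% and 5.41%. C3H/10T1/2 arrays of the same replicate number deviated together, and with the number as a block 1419247_at was called at all 5 times, with adjusted p from 0.000348 to 0.0281. Of 16123 probe sets tested, 0.143% had every RSG array under every DMSO array at these 5 times, both Rgs2 probe sets among them.

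Several of these calls did not hold when 1 array was left out, whichever of several arrays it was. For 1419247_at at 48 hrs, adjusted p rose to between 0.0590 and 0.279 without RSG replicate 1 or 2 or any 1 of the DMSO replicates, to 0.0826 in a fit of only the groups compared, and to 0.0699 and 0.0660 without the intensity trend and without the filter on dim probe sets. For 1419248_at it was 0.128 to 0.221 at 2 hrs without RSG replicate 1, RSG replicate 2 or DMSO replicate 3, and 0.0846 to 0.151 at 24 hrs without RSG replicate 1, DMSO replicate 2 or DMSO replicate 3, and the fit of only the groups compared ended its calls at 2, 24 and 48 hrs (0.299, 0.0769 and 0.0629). The sign did not turn: in all 278 refits of the Rgs2 comparisons at 2 to 48 hrs in the lines together the difference was negative, from -1.31 to -0.31.

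The effect of RSG on Rgs2 was not shown to differ between the lines. At 24 hrs it was more negative in 3T3-L1 than in C3H/10T1/2 adipocytes by 0.55 ± 0.27 (SE, log2; difference -0.55, interval -1.10 to -0.01) on 1419247_at and by 0.62 ± 0.20 (-0.62, interval -1.01 to -0.22) on 1419248_at, with limma adjusted p of 0.579 and 0.228. At 48 hrs the differences were -0.51 (interval -1.06 to 0.03) and -0.60 (interval -0.99 to -0.20), with adjusted p of 0.599 and 0.174. At 2, 4 and 7 hrs they ranged from -0.40 to 0.23. Over all members, 0 of 40 such differences were called by limma and 6 had an unadjusted p under 0.05, and the share of all probe sets called was 0.0%, 0.0%, 0.0164%, 0.257% and 0.848% at 2, 4, 7, 24 and 48 hrs.

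In DMSO alone Rgs2 was lower in 3T3-L1 adipocytes, and no change over time was called. The lines had been differentiated by different protocols, so line and protocol cannot be told apart in any comparison between the lines. Over the DMSO arrays of all 6 times, 1419247_at ran from 959.5 through a median of 1227.9 to 1414.6 in 3T3-L1 adipocytes (n = 17) and from 1048.5 through 1772.2 to 2268.1 in C3H/10T1/2 adipocytes (n = 18), so the lines overlapped. Probe set 1419248_at ran from 501.6 to 737.7 and from 725.3 to 1333.2. The mean of the DMSO groups at 24 and 48 hrs differed from that at 2, 4 and 7 hrs by -0.01 ± 0.10 (SE, log2) and 0.05 ± 0.10 for 3T3-L1 and by 0.12 ± 0.14 and 0.07 ± 0.08 in the other line, none called. Over all members 0 of 14 such comparisons were called by limma and 1 had an unadjusted p under 0.05, where 3.99% and 17.6% of all probe sets were called in the 2 lines.

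Between the lines in DMSO at 2 to 48 hrs, Rgs2 differed by -0.58 ± 0.09 (SE, log2, 3T3-L1 minus C3H/10T1/2, adjusted p = 8.18e-08) and -0.62 ± 0.06 (adjusted p = 1.55e-12). Most probe sets differed here: 74.3% were called, and the median of all was 0.32, or 0.08 after quantile normalization, so that Rgs2 lay 0.89 and 0.93 under that median (-0.89 and -0.93). After quantile normalization the Rgs2 differences were -0.41 and -0.49, still called. The fit with the replicate number as a block compared the lines at the level of replicate 1 only. Its -0.24 for 1419247_at is therefore not a difference between the mean levels of the lines.

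Ordered by mean signal of 1419247_at, the 6 RSG groups of 3T3-L1 adipocytes were the lowest of the 24 groups, from 526 to 648, and the 6 DMSO groups of C3H/10T1/2 adipocytes the highest, from 1437 to 2031. The DMSO groups of 3T3-L1 adipocytes, from 1052 to 1275, lay among the RSG groups of C3H/10T1/2 adipocytes, from 803 to 1255. Each of the 23 pairs of neighbours in this order overlapped in their arrays, as did 21 of 23 for 1419248_at.

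Pde4b, whose product breaks down cAMP, was dim, and 1 of its 24 comparisons of RSG with DMSO was called. That call was at 48 hrs in 3T3-L1, where 14.3% of all probe sets were called. The gene lies on chromosome 4 of GRCm38.p6, from 102087332 to 102607275, and its 2 probe sets were designed on 1 sequence entry. On 1422474_at no comparison of RSG with DMSO was called, with log2 differences from -0.19 to 0.11 for 3T3-L1 cultures and from -0.61 to 0.10 for C3H/10T1/2 cultures and SE of 0.24 to 0.27.

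On 1422473_at, Pde4b fell in 3T3-L1 adipocytes at 48 hrs. The DMSO arrays read 48.9, 37.1 and 42.1 and the RSG arrays 19.6, 17.7 and 17.5, all RSG arrays just under the presence level, so DMSO was at least 2.13-fold higher (limma adjusted p = 0.0121 for a fitted log2 difference of -1.22 ± 0.34, SE). At 24 hrs they read 44.3, 45.2 and 56.0 against 22.8, 27.2 and 48.3, which overlapped (-0.63 ± 0.34, adjusted p = 0.262). The arrays at 48 hrs did not overlap, but the call was lost without DMSO replicate 1 (adjusted p = 0.0574) and in a fit of only the groups compared (0.0524), and 1422474_at read 66.1, 62.8 and 53.8 against 68.3, 52.8 and 61.2 on the same arrays. The 2 probe sets of Pde4b thus disagreed at 48 hrs.

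In C3H/10T1/2 adipocytes 1422473_at read 24.1, 21.8 and 12.8 with DMSO and 24.4, 15.1 and 15.9 with RSG at 48 hrs, and 46.1, 35.7 and 38.4 against 22.7, 26.6 and 25.9 at 24 hrs, a difference of -0.67 ± 0.34 (SE, log2) that was not called (limma adjusted p = 0.271) although the arrays did not overlap. The difference between the lines at 48 hrs was -1.15 ± 0.48 (adjusted p = 0.406). In DMSO, Pde4b was higher in 3T3-L1 adipocytes on both probe sets, at 36.3 to 69.4 against 11.1 to 46.1 for 1422473_at and 51.5 to 105.3 against 21.8 to 51.2 for 1422474_at. The log2 differences were 0.77 ± 0.16 (SE, limma adjusted p = 2.25e-05) and 0.84 ± 0.11 (3.93e-09), or 0.45 and 0.53 over the median of all probe sets. After quantile normalization they were 0.29, no longer called (adjusted p = 0.135), and 0.43.

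Gnai1, the alpha subunit of an inhibitory G protein, was near the presence level, and its 3 probe sets did not move together. It lies on chromosome 5 of GRCm38.p6, from 18265135 to 18360413. In DMSO, 1434440_at was present on 14 of 17 arrays of 3T3-L1 and 12 of 18 of C3H/10T1/2 adipocytes, 1427510_at on 9 and 3, and 1454959_s_at on 4 and 16. The ending _s_at marks a probe set whose probes can match several transcripts.

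In C3H/10T1/2 adipocytes 1454959_s_at was higher with RSG at 24 hrs, reading 18.1, 22.5 and 25.5 with DMSO and 37.7, 48.3 and 41.4 with RSG, a log2 difference of 0.95 ± 0.26 (SE, limma adjusted p = 0.0191). At 48 hrs it read 18.4, 33.7 and 25.9 against 43.6, 45.1 and 46.7, a difference of 0.84 ± 0.26 that missed the threshold (adjusted p = 0.0523) and passed it with the replicate number as a block (0.0159) and without DMSO replicate 2 (0.0290). The arrays did not overlap at either time, nor at 7 hrs (0.58 ± 0.26, adjusted p = 0.274). The call at 24 hrs was lost without RSG replicate 2 (adjusted p = 0.0829), without DMSO replicate 1 (0.1005) and in a fit of only the groups compared (0.0572). Of all probe sets, 7.72% were called at 24 hrs in this line. On the other Gnai1 probe sets no comparison was called in this line, and at 24 hrs 1434440_at read 24.8, 20.8 and 24.6 with DMSO and 27.7, 22.7 and 28.7 with RSG.

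In 3T3-L1 adipocytes no Gnai1 comparison was called, with differences from -0.87 to 0.76 (log2) and SE of 0.40 to 0.49 over the 3 probe sets. At 24 hrs they stood on both sides of 0: 1454959_s_at read 13.5, 18.8 and 16.0 with DMSO and 23.1, 23.5 and 34.4 with RSG, so RSG was at least 1.33-fold higher (adjusted p = 0.280), whereas 1427510_at read 16.6, 40.8 and 19.0 against 14.6, 19.3 and 7.5. Between the lines in DMSO, 1454959_s_at differed by -0.92 ± 0.15 (SE, log2, 3T3-L1 minus C3H/10T1/2, limma adjusted p = 1.68e-07) and 1427510_at by 0.49 ± 0.17 (0.0102), while 1434440_at differed by 0.30 ± 0.16 (0.0762). After quantile normalization the last pair became -0.07 and -0.22, both uncalled, and 1454959_s_at was -1.45. Relative to the median of all probe sets the 3 lay at -1.24, 0.17 and -0.01, so no direction holds for Gnai1 as a gene.

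**Figure D2:**
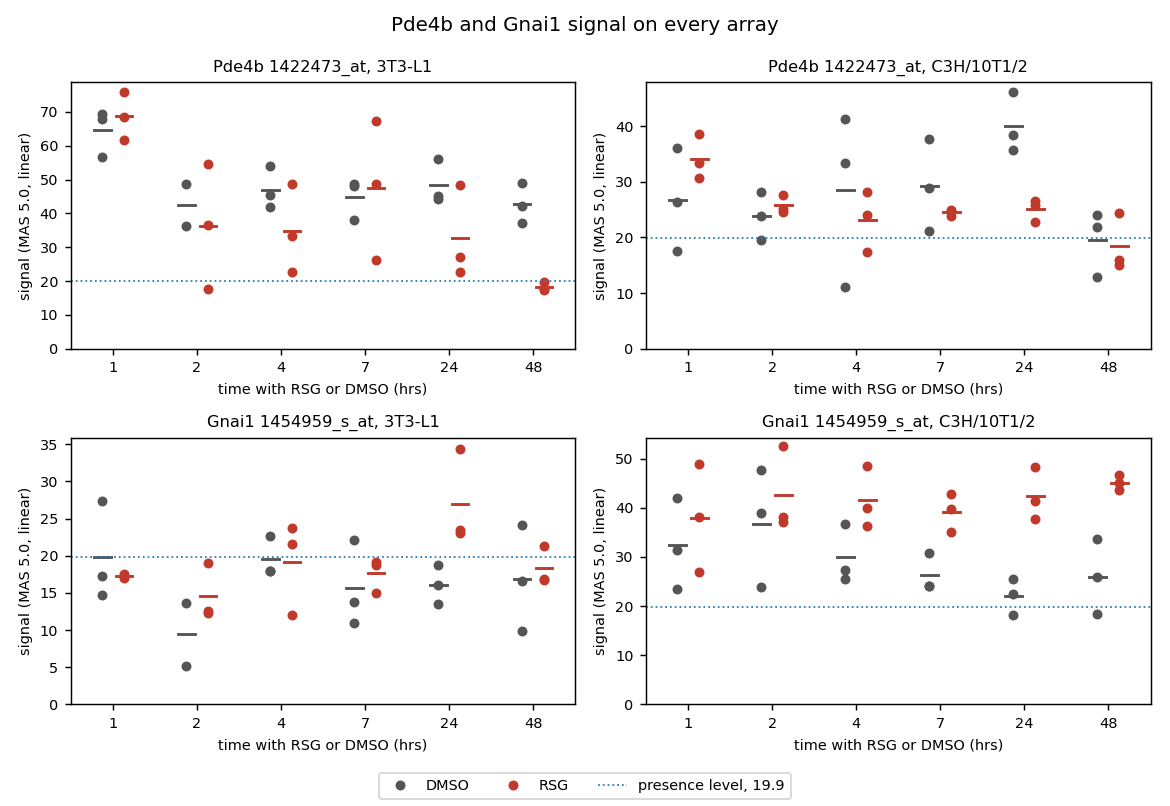
Signal (MAS 5.0, linear scale from 0) of Pde4b 1422473_at and Gnai1 1454959_s_at on each array against time in hrs, with points for arrays (grey DMSO, red RSG), bars for group means and a dotted line at the presence level. All RSG arrays of Pde4b at 48 hrs in 3T3-L1 lie between 17.5 and 19.6, under DMSO arrays of 37.1 to 48.9.

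**Figure D3:**
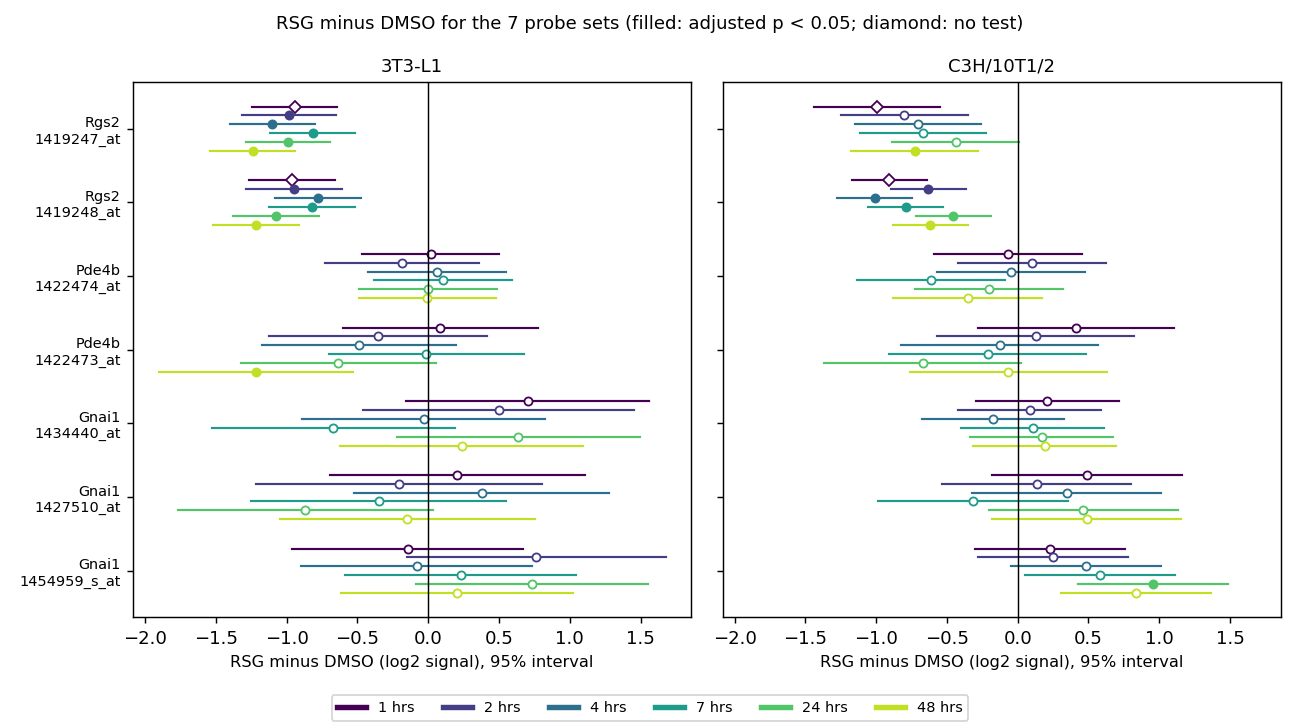
RSG minus DMSO in log2 signal (x axis) for each probe set (y axis) at 6 times (colours), with 95% intervals from limma, in both lines. Filled points had an adjusted p under 0.05, open circles did not, and open diamonds are the Rgs2 values at 1 hr, which have no test. The Rgs2 points lie left of 0 throughout, and those of Pde4b and Gnai1 lie on both sides.

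**Figure D4:**
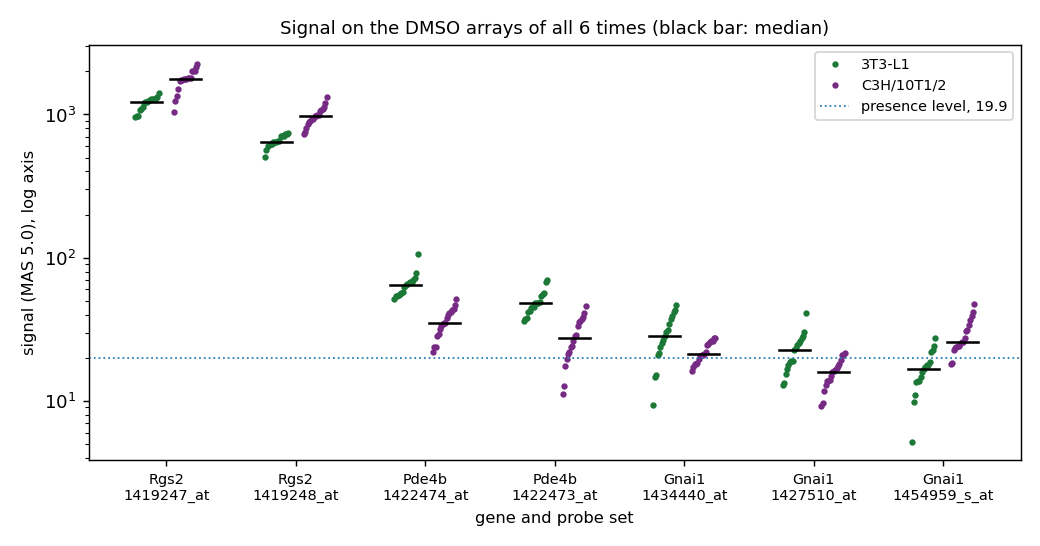
Signal (log axis) on each DMSO array of the 6 times for each probe set (x axis), in 3T3-L1 (green, n = 17) and C3H/10T1/2 adipocytes (purple, n = 18), with black bars at medians. Lines can be compared within a probe set but not levels between probe sets. Rgs2 medians were 1227.9 and 1772.2 for 1419247_at.

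Fibroblast and preadipocyte genes moved with the late values. Of the 7 named on the array, 3 were called lower by 24 hrs and 6 by 48 hrs in the 3T3-L1 line. There 6.97% and 8.09% of all probe sets were called lower. In the other line 3 of the 7 were called lower at either time, beside 4.07% and 2.62% of all probe sets. The mean log2 signal of the 7 genes per array at 48 hrs was 10.00 to 10.27 with DMSO and 9.31 to 9.50 with RSG in 3T3-L1. In the other line it was 8.41 to 8.60 against 7.85 to 7.96. Their part in the results at these times was not tested. At 2, 4 and 7 hrs 0 of the 7 were called in either line by limma. Their median log2 differences were then -0.08, -0.15 and -0.17 for 3T3-L1 and -0.0036, -0.14 and -0.14 for C3H/10T1/2. Their part in the earlier results was not tested either. Of the skeletal muscle, macrophage and endothelial genes tested, none was called with RSG at any time in either line by limma.

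The rest of the pathway was read from lists of 145 genes by role, of which the annotation names 107 on 192 probe sets, among them 0 of 3 beta-adrenergic receptors. Without the members, the fits covered 138 probe sets for 3T3-L1 and 111 for C3H/10T1/2. At 1 hr none was called in either line by limma, with 7 and 5 at an unadjusted p under 0.05. At 2, 4 and 7 hrs the counts were 2, 5 and 6 for 3T3-L1, which is 1.45%, 3.62% and 4.35% of the pathway probe sets where 0.172%, 0.716% and 2.04% of all were called. For C3H/10T1/2 they were 0 (6 unadjusted), 3 and 6, or 0.0%, 2.7% and 5.41% beside 0.229%, 0.763% and 2.85% of all. These small counts gave a share above the background except at 2 hrs in C3H/10T1/2 adipocytes, and the lists were chosen with results of these arrays known. The early ones, named after their values were seen, were the nuclear receptor gene Nr4a1 (1.04, log2) and Pde7a at 2 hrs in 3T3-L1, then Adcy6, an adenylyl cyclase (0.71), Fos (1.43), Akap1 (0.74) and 2 probe sets of Rgs3 (-0.75 and -1.12) at 4 hrs. In C3H/10T1/2 adipocytes at 4 hrs they were Hcar2 (0.78), Ffar2 (0.60) and Akap1 (0.72).

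In the 3T3-L1 line 6 pathway probe sets rose and 8 fell by 24 hrs, where 4.79% and 6.97% of all probe sets did, and at 48 hrs there were 6 rises and 11 falls, where 6.2% and 8.09% of all moved so. In C3H/10T1/2 adipocytes 2 rose and 5 fell at 24 hrs (3.65% and 4.07% of all), and 3 rose and 4 fell at 48 hrs (2.79% and 2.62% of all). The list medians were 0.09 and 0.04 (log2) for 3T3-L1 and -0.09 and -0.03 for C3H/10T1/2, beside -0.01, -0.03, -0.07 and -0.01 for all probe sets tested. At these times the share of pathway probe sets called was close to the background.

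Receptors changed in both directions. Hcar2, the Gi-coupled receptor for nicotinic acid, rose in 3T3-L1 adipocytes from 401 ± 88.3 to 1080 ± 147 (SD, n = 3 each) at 48 hrs, a log2 difference of 1.45 ± 0.20 (SE, limma adjusted p = 2.78e-06), and by 0.79 at 24 hrs, but read 1288 and 1500 in C3H/10T1/2 adipocytes at 48 hrs (0.20, adjusted p = 0.662). Mc2r, the Gs-coupled receptor for ACTH, fell in 3T3-L1 adipocytes (-0.84 and -0.85 by 24 and 48 hrs), and in C3H/10T1/2 adipocytes its differences of 0.08 and -0.43 were not called. Ptger4, a Gs-coupled prostaglandin E2 receptor, fell in 3T3-L1 adipocytes at 48 hrs (-1.94 ± 0.41, SE), with 1 of 3 RSG arrays present, and in the other line differed by 0.94 ± 0.77, not called (adjusted p = 0.641). Adcyap1r1, a PACAP receptor, was at least 1.23-fold lower with RSG on 1 probe set in 3T3-L1 adipocytes at 24 hrs. No other probe set of Adcyap1r1 was called at any time in either line.

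Among G protein subunits, falls and no rises were called at 24 and 48 hrs. They numbered 4 of 25 probe sets at either time for 3T3-L1, where 6.97% and 8.09% of all probe sets were called lower. For C3H/10T1/2 they numbered 3 of 20, beside 4.07% and 2.62% of all. Separate probe sets of the same gene, Gnai2, were among the falls at 48 hrs in each line. Whether these small counts exceeded the background was not tested. Gnai2, an inhibitory alpha subunit related to Gnai1, went from 520 ± 97.5 to 222 ± 39.5 (SD, n = 3 each) at 48 hrs in 3T3-L1 (-1.22 ± 0.19, SE, limma adjusted p = 1.87e-05) and by -0.61 in the other line (adjusted p = 0.0205). Gng10, a gamma subunit, fell in both lines, by 24 and 48 hrs of RSG (-1.25 and -0.79 for 3T3-L1, -0.74 and -0.82 for C3H/10T1/2). Gnai3, the third inhibitory alpha subunit, fell at 24 hrs in both lines on the same probe set (-0.48 for C3H/10T1/2 and -0.65 for 3T3-L1). No other probe set of Gnai3 was called at any time in either line.

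Among regulators of G protein signaling, Rgs17, a member that acts on inhibitory subunits, went up with RSG. It moved from 40.9 ± 11.1 to 111 ± 19.5 (SD, n = 3 each) at 48 hrs in 3T3-L1 (1.46 ± 0.23, SE, limma adjusted p = 2.16e-05) and from 30.5 to 67.2 in the other line (1.16, adjusted p = 0.0300). At 48 hrs in 3T3-L1 adipocytes 1 of 20 probe sets of this list rose and 3 fell, where 6.2% and 8.09% of all probe sets did. Grk5, a kinase that desensitizes receptors, fell at 24 hrs in C3H/10T1/2 adipocytes (-0.80).

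Of the phosphodiesterases, Pde1a fell at 48 hrs in both lines (-0.51 for 3T3-L1, -0.63 for C3H/10T1/2), and Pde7a was at least 1.84-fold lower with RSG at 24 hrs and at least 1.50-fold higher at 48 hrs in 3T3-L1 adipocytes. Akap1, which anchors protein kinase A at the mitochondrion, rose on 2 probe sets at 48 hrs in 3T3-L1 (1.30 and 1.15) and in the other line (0.97 and 0.72). None of the 9 probe sets for subunits and inhibitors of protein kinase A was called at 24 or 48 hrs in either line by limma, with 0 and 1 at an unadjusted p under 0.05 for 3T3-L1 and 2 and 0 for C3H/10T1/2. Ppargc1a, a coactivator induced by cAMP, rose on 1 probe set at 24 hrs in 3T3-L1 (1.16). On the same probe set it was at least 1.41-fold higher with RSG in C3H/10T1/2 adipocytes at 24 hrs. No other probe set of Ppargc1a was called at any time in either line. Nr4a1 fell in C3H/10T1/2 adipocytes at 24 hrs (-0.81).

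**Figure D5:**
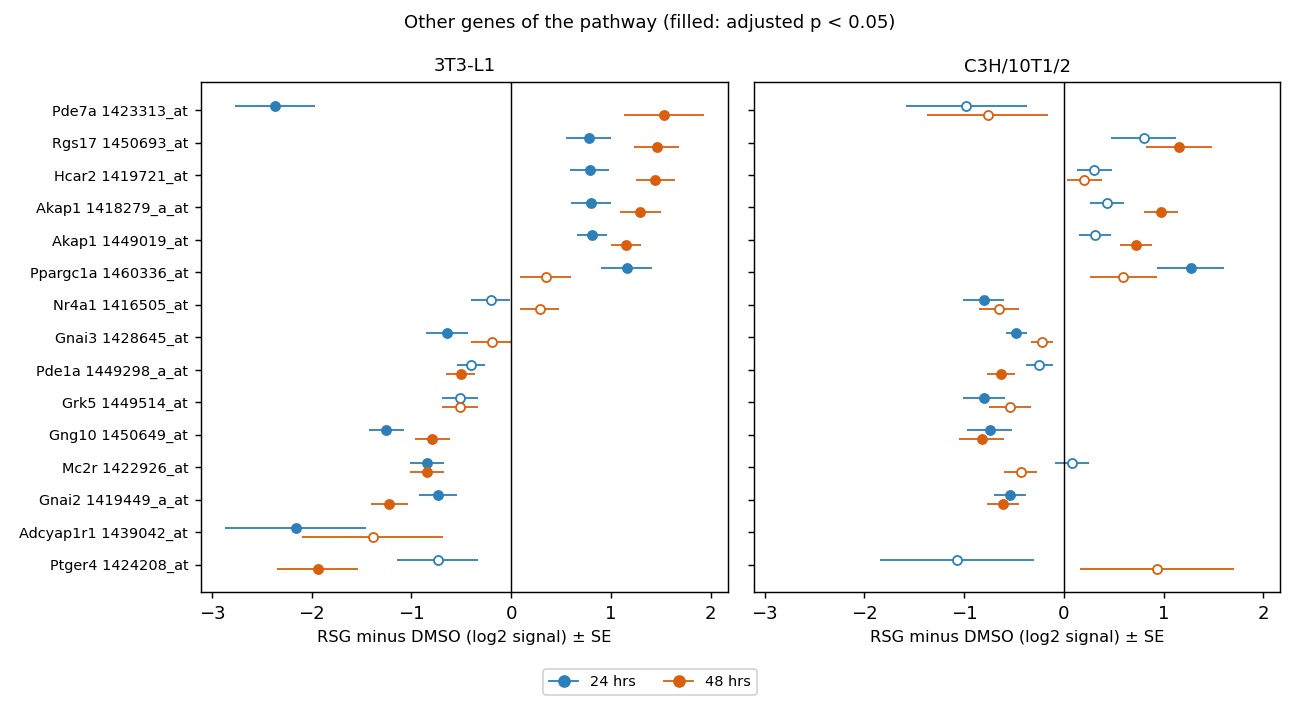
RSG minus DMSO in log2 signal ± SE (x axis) at 24 and 48 hrs for the pathway genes named by rule (y axis, gene and probe set), 1 panel a line. Filled points had an adjusted p under 0.05, and where 1 group was under the presence level on all arrays the fitted point is no measure of fold. Hcar2 at 48 hrs stands at 1.45 in 3T3-L1 and 0.20 in C3H/10T1/2.

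Over the 24 group means, with the mean of each line removed, the genes whose log2 signal was most like that of Rgs2 1419247_at were Pparg (Pearson r = 0.831), Zfp503 (0.830) and Nfic (0.793), out of 9315 genes. For Pde4b 1422474_at they were Slc39a14 (0.778), Tomm34 (0.735) and Dgka (0.714), and for Gnai1 1434440_at Sppl3 (0.736), Ntng1 (0.688) and Add2 (0.669). These are descriptions over 24 points that share the 2 treatments and 6 times. The points include the 1-hr groups that Rgs2 was picked on.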

How the data were processed

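Total RNA from 71 cultures was hybridized to Affymetrix 430A arrays. The authors deposited 1 table of signal intensities from MAS 5.0 on a linear scale, which were not normalized again. Of 22690 probe sets, 64 controls were set aside. The platform annotation gave exactly 1 gene for 20380 of 22626 probe sets, and gene positions and promoters came from RefSeq tables (GRCm38.p6). The 132 values of 0 were set to 0.1. Probe sets were tested in a line where a group mean reached 19.9, the presence level of the methods. Log2 signals were fitted with limma 3.58.1 in R 4.3.3 (1 mean per group, intensity trend), per line or jointly for differences between lines, and p values were adjusted over all probe sets tested. The pipeline was tested on simulated data. Tables and figures used Python 3.11.15 and matplotlib 3.10.9.

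The members and gene lists were chosen with earlier results of these data known. Other pathway genes were named where they were among the 4 largest rises or falls at 24 or 48 hrs with an adjusted p under 0.05 and no overlap of arrays. The deviations of RSG and DMSO arrays with one replicate number from their group means correlated at over 0.1 in 18 of 18 pairs of C3H/10T1/2 (0.132 to 0.307) and 14 of 17 pairs of 3T3-L1 adipocytes (0.019 to 0.261). The number, taken from the titles, was therefore read as pairing C3H/10T1/2 arrays only. The main fits used no pairing in either line. It entered as a block only in alternative fits, which were run for both lines. Replicates are labelled as biological. The number of arrays limits the precision.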

Additional observations from a re-analysis of the deposited data

Results flagged for a closer look

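The effect of RSG on Hcar2, the receptor for nicotinic acid, at 48 hrs differed between the lines by a test of the difference itself, at 1.24 ± 0.27 (SE, log2, 3T3-L1 minus C3H/10T1/2, limma adjusted p = 0.00696). The arrays read 299.3 to 458.1 with DMSO and 994.4 to 1249.1 with RSG in 3T3-L1, and 1218.8 to 1409.8 and 1203.3 to 1794.5, which overlapped, in C3H/10T1/2 adipocytes. Among the other pathway genes no such difference was called at any time.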

How the results depend on the processing

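Of 40 comparisons of members between RSG and DMSO per line (Rgs2 at 1 hr left out), 11 were called for 3T3-L1 and 7 for C3H/10T1/2. All but 1 of the calls in each line were on Rgs2, which was picked on these data. The share of all probe sets called ran from 0.0666% to 14.3% and from 0.0434% to 7.72% over the 6 times. The methods' test (analysis of variance of log10 signals, unadjusted p under 0.05 and 1.2-fold) called 12 in C3H/10T1/2, and after adjustment 1 for 3T3-L1 and 0 for C3H/10T1/2. After adjustment it called few of all 16123 probe sets in C3H/10T1/2, for example 1 rise and 4 falls at 24 hrs. A fit of only the groups compared called 2 in C3H/10T1/2 adipocytes. With the replicate number as a block, which pairs arrays, 12 were called there, and the block moved no other count of calls by more than 1.5 times. In DMSO between the lines the block fit compared the level of replicate 1 only. Its changed calls for Gnai1 1427510_at and 1434440_at therefore do not show an effect of pairing. Quantile normalization reversed the DMSO difference of Gnai1 1427510_at to -0.068 and of 1434440_at to -0.22.

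Without 1 array at a time the calls numbered 9 to 11 in 3T3-L1, 5 to 8 in C3H/10T1/2 and 6 to 7 in DMSO between the lines (6 with all arrays), and 0 in the other comparisons. Small uncalled Rgs2 differences changed sign without single arrays: DMSO over time ran from -0.069 to 0.027 in 3T3-L1 (1419247_at) and from -0.0077 to 0.11 in C3H/10T1/2 (1419248_at), and the difference between lines from -0.42 to 0.028 at 2 hrs and -0.27 to 0.0027 at 7 hrs (1419247_at) and -0.18 to 0.067 at 7 hrs (1419248_at). The causes were not tested. Signals near the presence level, as for Gnai1 and 1422473_at of Pde4b, limit what these arrays can show.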

Other observations

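One of the 4 probe sets of Pde7a stood apart among the pathway genes in 3T3-L1 adipocytes because it changed direction. With DMSO its mean was 48.5 at 1 hr, 49.4 at 2 hrs, 49.3 at 4 hrs, 39.7 at 7 hrs, 38.17 at 24 hrs and 11.4 at 48 hrs, and with RSG 46.6, 7.47, 25.2, 16.2, 7.10 and 29.9. The other 3 probe sets of Pde7a were not called at any time in either line. The differences of this one were called by limma at 2, 7, 24 and 48 hrs. At 48 hrs it was the DMSO arrays that lay under the presence level, at 6.4 to 18.2, against RSG arrays of 27.9 to 31.5. In C3H/10T1/2 adipocytes no time was called, and the difference between the lines at 48 hrs was 2.30 ± 0.75 (SE, log2, limma adjusted p = 0.165).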
